A study of Drosophila melanogaster with 2 samples.

Results

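The regions described here are the reproducible Pita peaks on the X chromosome of Drosophila melanogaster embryos. They are the entries on chromosome X of the optimal list that the authors made with an irreproducible discovery rate (IDR) threshold, on the dm6 assembly. X held 278 of the 1338 summits in that list, against 1044 on the 4 large autosomal arms (226 on 2L, 223 on 2R, 277 on 3L and 318 on 3R). The 278 summits lay in 262 distinct intervals. A summit within 300 bp of a stronger one is called a shoulder summit, and going down from the strongest summit, 48 such summits were dropped on X, which left 230 peaks. Chromatin came from male and female embryos collected together at 0 to 24 hours, from a transgenic line that stably expresses Pita with GFP fused to its C terminus. It was sonicated to a size range of 200 to 800 bp and precipitated with anti-GFP, according to the description in the labels; the antibody field names pita instead. The 2 libraries, biological replicates 1 and 3 by the labels, make up 1 group, so no groups can be contrasted. A control is named there and was not analysed here. How the replicates were raised is not said, and the spread between them may be technical. The sources used here do not name the promoter that drives the transgene.

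Pita is an architectural protein with zinc fingers, which binds DNA at insulators and boundary elements and also at gene promoters. The X chromosome differs from the autosomes in copy number. Male flies carry a single X, and the MSL complex, with the non-coding RNAs roX1 and roX2, raises its transcription in males, while Sxl, the master gene of sex determination, keeps that system off in females. Embryos of both sexes together therefore hold fewer copies of X than of each autosome. How far copy number enters the signal values was not tested. Each signal is the authors' own value for that peak and is set side by side only within a list. Read depth is unknown, and all intervals below are 95% intervals that cover counting error alone. Peaks are not replicates, so no p-values are given. Differences between X and the autosomes are read against their intervals and against the range over the 4 arms.

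The strongest X peaks mostly held a sequence pattern that was learned on autosomal peaks. A 19 bp matrix learned only on autosomal peaks, so that no X peak took part in shaping it, was searched within 50 bp of each X summit on both strands. The matches at the 8 strongest X peaks that hold one, at Sxl and at the 3 weakest X peaks with a strong match are shown because they carry most of what follows. They are given 5′ to 3′ in the direction of the matrix, from the RefSeq sequence of dm6, with the 19 matched bases in capitals. The last 3 were chosen after their values were seen.
Tlk, chrX:3719858-3719886, minus strand: gttacTTAGCGTGTGCACCAACCAtagtt
cib, chrX:4105859-4105887, minus strand: ttcatTTAGCAGAGACACGAACCAcatct
Atg8a, chrX:10768410-10768438, minus strand: aacatTTAGCGAATACATGAACCAaatgg
ec, chrX:3811472-3811500, minus strand: ttgctTTAGCCAAGACTCAAACCCacttg
PhKgamma, chrX:11695030-11695058, minus strand: aattgTTAGCTAAGACACACCCCGaccag
N, chrX:3134731-3134759, minus strand: taacgTTAGCCGGGCTCCGAGCCGcttgc
pico, chrX:19852141-19852169, plus strand: cgcagTTAGCGGGCACAAGCACCGaagcg
Rubicon, chrX:8676964-8676992, plus strand: ccggcGTAGTCATGACACAAACCGcagca
Sxl, chrX:7098187-7098215, plus strand: tccatTTAGCGAATACACGAACCCattta
CG43737, chrX:15175254-15175282, plus strand: cgctcTTAGCCGTGACACAAACCGtcagt
OdsH, chrX:17790317-17790345, plus strand: actttTTAGCACAGACTCAAACCAcgagc
IP3K2, chrX:13319346-13319374, minus strand: tcattTTAGCGAAGACAAGCTCCCcagtt
Both ends of the pattern recur, with TTAGC at the left of all but Rubicon and CC near the right end of each, and the bases between them vary. In the autosomal matrix C made up 99.0% of sites at position 17 and 97.7% at position 18, counted from 1 at the left, and A made up 93.5% at position 3. Only stretches that passed the score of this matrix are shown, so their likeness to each other follows from that choice.

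The strongest X summit lay upstream of Tlk, at chrX:3719798-3719898 on the plus strand, in a stretch with no annotated UTR. The bases within 50 bp of it show the match beside the summit, again in capitals, here on the strand opposite to the matrix.
Tlk summit: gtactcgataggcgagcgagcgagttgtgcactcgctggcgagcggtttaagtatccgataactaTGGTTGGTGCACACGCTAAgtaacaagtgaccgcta
Over all X summits with the sequence, the centre of the match lay at a median of 16 bp from the summit, and 99 of 168 lay within 20 bp. The whole match had to lie within 50 bp of the summit, which bounds these distances. They were not compared with even placement in that window. The match was on the plus strand at 91 summits and on the minus strand at 77.

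The 12 strongest X peaks were all promoter summits, which means within 500 bp of an annotated transcription start site (TSS), and all 12 held the sequence. Tlk, which encodes Tousled-like kinase of the chromatin assembly pathway, had a signal of 4593, with 2145 in replicate 1 and 2421 in replicate 3. The summit of cib, an actin-binding protein gene, had 4357, with 2048 and 2304 in replicates 1 and 3. Atg8a, a ubiquitin-like protein of autophagy, had 3548, with 1602 and 1933. Each replicate alone placed these 3 among its 16 strongest candidates of the whole genome. The summits lay 159, 202 and 97 bp upstream of the TSSs of Tlk, cib and Atg8a. N, the gene of the Notch receptor, had 3320 (1522 in replicate 1 and 1825 in replicate 3), 110 bp upstream of its single annotated TSS. Sxl had 2621.5 (1194 in replicate 1 and 1426 in replicate 3), 142 bp upstream of the most upstream of its 4 annotated TSSs. The other 7 of the 12 were ec, PhKgamma (a phosphorylase kinase subunit), pico, Rubicon, CG4293, inc and CG2924. Their signals ran from 2726 at CG2924 to 3510 at ec, and their summits lay between 77 and 191 bp upstream of a TSS.

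Outside promoters the strongest X peaks had lower signals. The strongest intergenic summit had 2024, with 960 in replicate 1 and 1082 in replicate 3, and lay 579 bp from a TSS of lncRNA:CR45667. The strongest intron summit, in Hr4, a nuclear receptor gene, had 2011, with 924 in replicate 1 and 1078 in replicate 3. The strongest in a 3′ UTR, nearest the TSS of CG5966, had 1953, with 907 and 1036. These 3 all held the sequence. In the remaining classes the strongest summits were much lower, with 865 in a 5′ UTR of bves, 337 in an exon of asRNA:CR44841 and 244 in a coding exon of CG12985, which overlaps mnb.

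The plot of signal in both replicates sets the libraries side by side at each X peak. Of the 278 X summits, 268 had a candidate of replicate 1 within 100 bp, 276 had one of replicate 3 and 266 had both. Across these 266, the log2 signals correlated with a Pearson's r of 0.937 and a Spearman's rho of 0.926. Over 1009 summits of the autosomal arms the values were 0.929 and 0.95. These describe peaks that share libraries, and the list was chosen for agreement between replicates. The median log2 ratio of replicate 3 to replicate 1 was 0.25 on X and 0.26 on the arms. Among the 50 strongest X peaks, the ranks differed most at the shoulder summit of CG4293, which ranked 285 in replicate 1 and 185 in replicate 3. Caf1-180, the large subunit of chromatin assembly factor 1, ranked 204 in replicate 1 and 125 in replicate 3. CG1998 ranked 178 in replicate 1 and 249 in replicate 3.

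**Figure D1:**
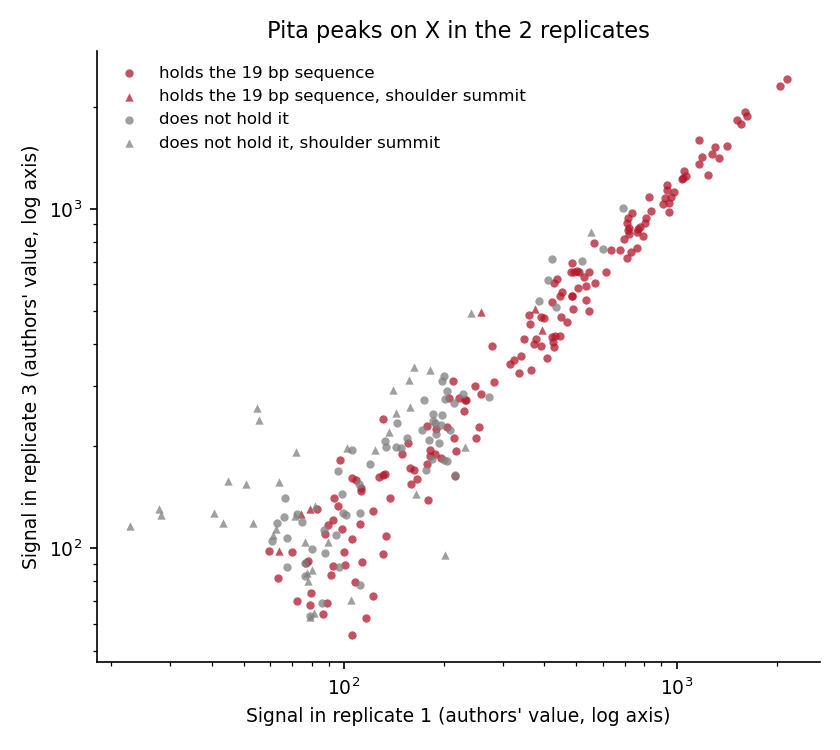
Signal of the 266 X summits matched in both replicates, replicate 1 on the horizontal and replicate 3 on the vertical log axis, in the authors' units. Circles are summits with no stronger one within 300 bp and triangles are shoulder summits; red points hold the 19 bp sequence, which most points at the upper right do, while points at the lower left are mixed.

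X carried more reproducible peaks per length than each of the 4 arms, and a larger share of its candidates was called. X had 11.8 summits per Mb (10.5 to 13.3), against 9.58 per Mb over the arms together, where single arms ran from 8.82 on 2R to 9.91 on 3R. Without shoulder summits the density was 9.77 per Mb on X and 7.80 on the arms, with single arms from 6.92 to 8.25. Densities are per length of the whole assembled arm, empty stretches included. The first summit lay at 124007 on X, 35666 on 2L, 248270 on 3L, 1243525 on 2R and 2412005 on 3R. The largest gap was 849985 bp on X and ran from 626981 bp on 3L to 3613562 bp on 2R. What part such stretches play in the densities was not tested. Of the 4419 pooled candidates on X, 6.29% were in the IDR list (5.59 to 7.05), against 4.16% on the arms and a background of 4.46% over all 30000 candidates. Matching each replicate's own candidates to the same IDR summits gave 6.19% on X and 4.03% on the arms in replicate 1. In replicate 3 it gave 6.04% on X and 4.14% on the arms. The summits matched are those of the 1 list, so these shares are not separate evidence. The denominator differed too. Candidates outside the IDR list, which include background regions, numbered 176 per Mb on X and 221 per Mb on the arms, with median signals of 33.3 on X and 34.3 on the arms. What part this lower number plays in the higher share was not tested.

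The median X peak was weaker, but the difference was not seen at the top of the list or at promoters without shoulder summits. The median signal was 410 on X (367 to 472) and 519 on the arms (472 to 573), where single arms ran from 451 on 2L to 579 on 3R. The medians differed by −0.34 on the log2 scale (−0.56 to −0.10). At promoter summits the difference was −0.20 with an interval that reached 0 (−0.53 to 0.40), and without shoulder summits the promoter medians were 821 on X and 815 on the arms. At the other summits it was −0.35 (−0.76 to −0.08). Over all locations with shoulder summits dropped, the medians were 469 on X and 647 on the arms. Single arms then ran from 567 on 2L to 766 on 3R. That difference was −0.46 on the log2 scale (−0.71 to −0.20). In replicate 1 the medians over matched summits were 194 on X and 243 on the arms, and in replicate 3 they were 233 on X and 295 on the arms. The upper quartiles were 1035 on X and 1077 on the arms, and the ninetieth percentiles 1767 and 1858, both within the range of the 4 arms. Of the 100 strongest pooled candidates 22 were on X and 76 on the arms, and all 3 candidate lists placed 22 there. Among the 669 stronger IDR summits the density ratio was 1.01 (0.820 to 1.23) and the median was higher on X, by 0.16 on the log2 scale (−0.04 to 0.45).

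**Figure D2:**
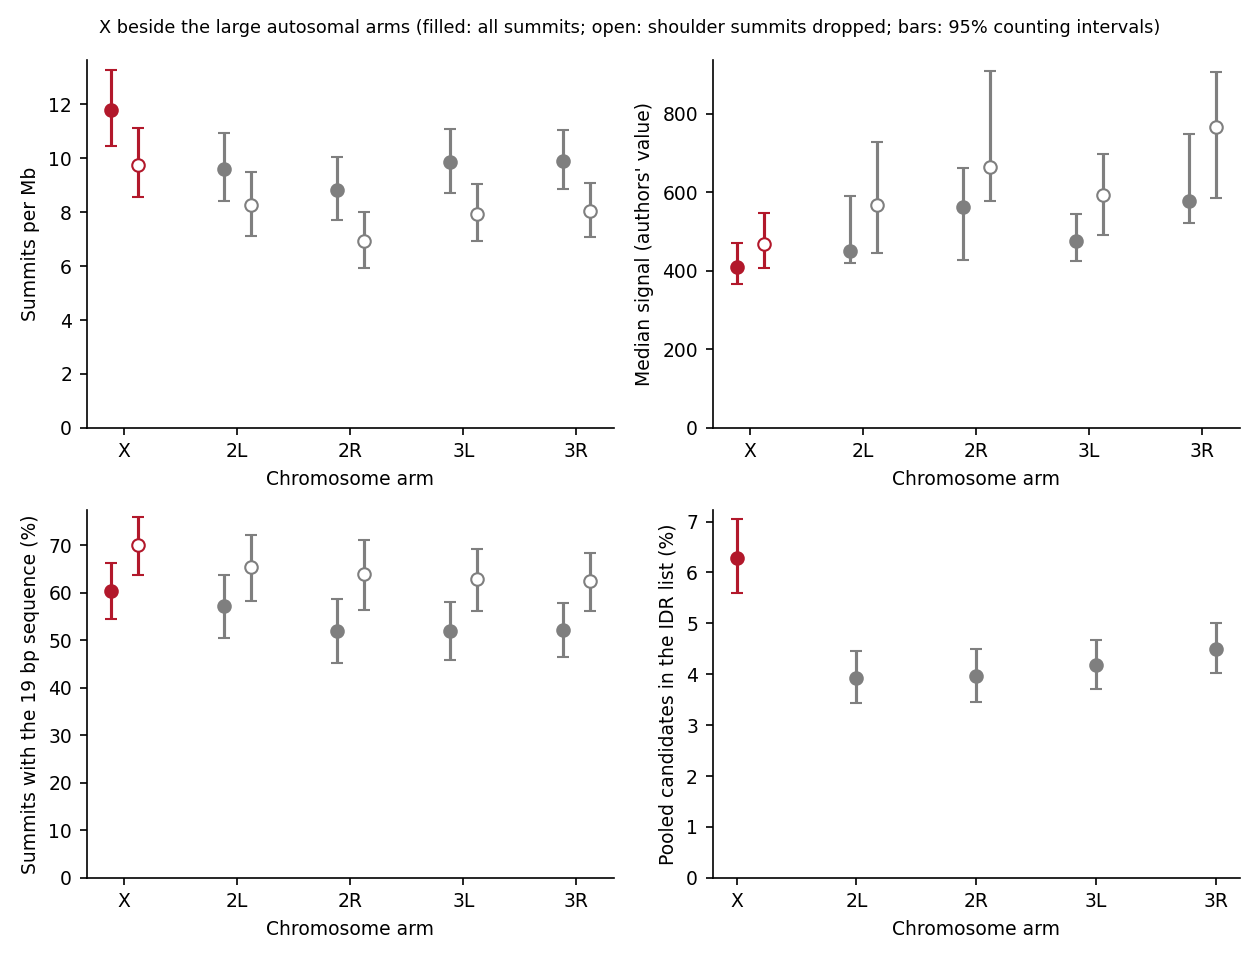
Summits per Mb, median signal in the authors' units, percentage of summits with the 19 bp sequence and percentage of pooled candidates in the IDR list, for X (red) and then 2L, 2R, 3L and 3R (grey). Filled points are all summits, open points have shoulder summits dropped and bars are 95% counting intervals; X is highest for density (11.8 per Mb), sequence and called candidates (6.29%) and lowest for median signal (410).

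The ratio of X to autosomal density was highest in the last 446 ranks of the list, and within them at summits that hold the sequence. This division into 3 groups of 446 ranks was made after the densities at several cutoffs had been seen. Among ranks 1 to 446 X held 84 summits and the arms 355, a density ratio of 1.10 (0.853 to 1.39). Among ranks 447 to 892 X held 85 and the arms 355, a ratio of 1.11 (0.864 to 1.41). Among ranks 893 to 1338, with signals from 144 to 317, X held 109 and the arms 334, a ratio of 1.51 (1.21 to 1.88). Without shoulder summits the 3 ratios were 1.08 (0.836 to 1.38), 1.26 (0.966 to 1.63) and 1.51 (1.14 to 1.97), and in the middle group the ratio was 1.20 with the sequence and 1.35 without it. The rank groups were not tested against each other.

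In these last 446 ranks, 47 of 109 X summits held the sequence (43.1%, 33.7 to 53.0), against 85 of 334 on the arms (25.4%, 20.9 to 30.5). The difference was 17.7 percentage points (7.49 to 28.0), and single arms ran from 20.8% to 27.5%. Per Mb, X had 2.56 times as many weak summits with the sequence as the arms (1.75 to 3.70) and 1.15 times as many without it (0.858 to 1.53). In the kept peaks the ratios were 2.62 with the sequence (1.76 to 3.86) and 0.938 without it (0.612 to 1.40). The replicates showed the same order when each was ranked by its own candidates. In replicate 1 the ratio at these ranks was 2.48 with the sequence (1.68 to 3.63) and 1.13 without it, and in replicate 3 it was 2.21 with the sequence (1.48 to 3.24) and 1.11 without it.

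Below the IDR list X had fewer candidates than the arms for its length, but at first a higher share of them held the sequence. Among ranks 1339 to 2676 of the pooled candidates, the density ratio was 0.689 (0.583 to 0.811). It was 1.14 with the sequence (0.754 to 1.68) and 0.629 without it (0.522 to 0.753). The share with the sequence was 19.5% on X and 11.8% on the arms, 7.72 percentage points higher (2.08 to 14.6). In replicate 1, by its own ranks, this difference was 3.63 points with an interval that reached 0 (−1.26 to 10.1). In replicate 3 it was 9.69 points (4.21 to 16.3). By each replicate's own ranks, the ratio with the sequence was 0.863 in replicate 1 (0.521 to 1.37) and 1.44 in replicate 3 (0.952 to 2.14), so the replicates lay on different sides of 1. Among ranks 2677 to 4014 the pooled ratio was 0.225 with the sequence, from 5 summits on X (0.0715 to 0.542), and 0.505 without it (0.414 to 0.611). There the ratio with the sequence was 0.471 in replicate 1, from 12 X summits, and 0.490 in replicate 3, from 11.

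**Figure D3:**
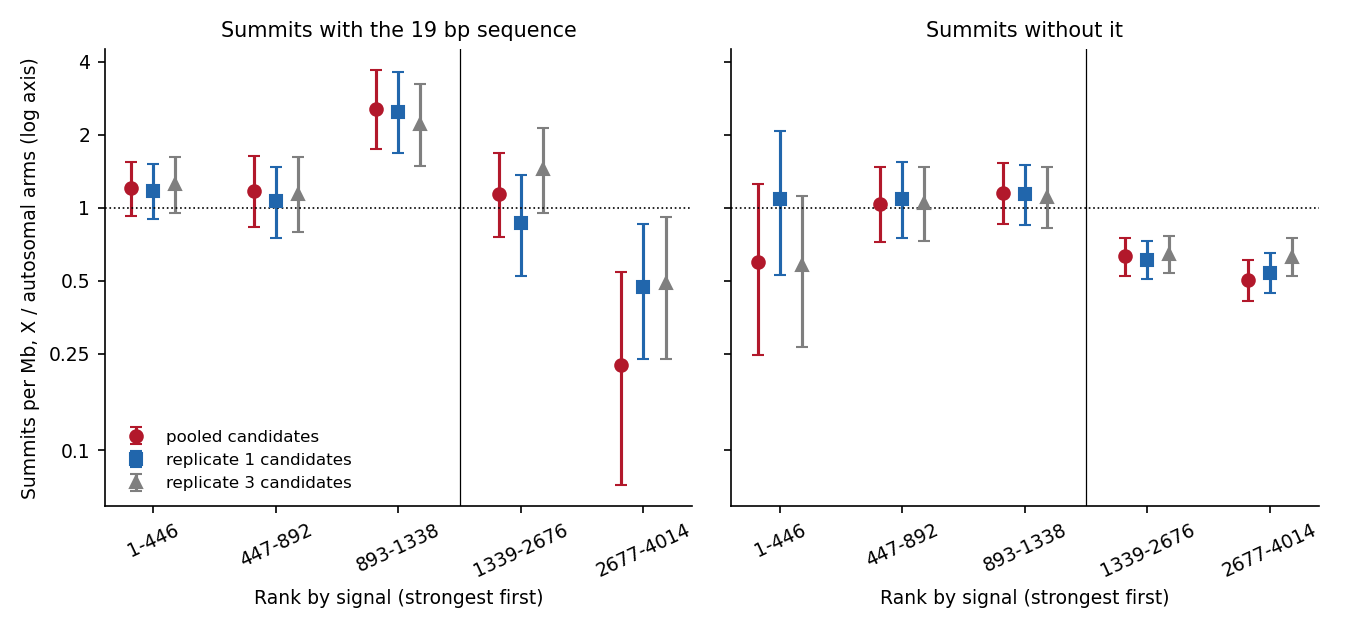
Density of summits per Mb on X over that on the autosomal arms (log axis), by rank of signal, for summits with the 19 bp sequence (left) and without it (right), in the pooled candidates (red), replicate 1 (blue) and replicate 3 (grey); bars are 95% counting intervals. The vertical line marks the length of the IDR list; at ranks 893 to 1338 the 3 lists give 2.56, 2.48 and 2.21 with the sequence and 1.15, 1.13 and 1.11 without it.

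Many of the weak X summits with the sequence lay in introns. Of the 47, 17 were in introns (36.2%), against 16 of 85 on the arms (18.8%), which is 4.92 times the autosomal density (2.34 to 10.4). Promoters held 18 of the 47, at 1.98 times the autosomal density (1.08 to 3.52), and intergenic sequence 6, at 1.39 times (0.456 to 3.59). UTRs and other exons held the remaining 6, at 3.97 times the autosomal density, with a wide interval (1.10 to 13.8). Of the weak X summits without the sequence, 10 of 62 were in introns (16.1%), against 15.3% on the arms. That is 1.22 times the autosomal density (0.541 to 2.49). How much of X and of the arms is intron sequence is not given here. By position along X, 12, 7, 13, 13 and 2 of the 47 lay in successive regions of 5 Mb, the last of them 3.54 Mb long. They were thus not gathered in a single region. Of the 47, 13 held a strong match, as did 30 of the 85 on the arms.

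Some of these weak summits had matches that scored within the range of those at the 12 strongest X peaks. OdsH, a homeobox gene, had a summit 665 bp upstream of its TSS with a signal of 148, with 79.0 in replicate 1 and 68.3 in replicate 3. The weakest X summit, in an intron of IP3K2, an inositol trisphosphate kinase gene, had 144, with 63.3 in replicate 1 and 81.6 in replicate 3. The promoter summit of CG43737 had 149, with 79.7 and 73.9. The other of the 3 weakest X summits, a shoulder summit at Eo, had 147.5 and no match. A weak summit in an intron of Sh, the Shaker potassium channel gene, had 168, and one in Drak, a kinase gene, had 190; both held strong matches and were named after their values were seen.

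Over all X summits 60.4% held the sequence (168 of 278, 54.4 to 66.2), against 53.2% on the arms, where single arms ran from 52.0% to 57.1%. The difference was 7.27 percentage points (0.69 to 13.6). With shoulder summits dropped the share was 70.0% on X and 63.5% on the arms, and the interval of the difference then reached 0 (6.47, −0.50 to 12.9). Windows centred 250 bp to the left and right of the kept X summits held it at 6.96% and 6.52%. When each arm was scored with a matrix learned on the other 3 arms, the difference was 7.85 (1.26 to 14.2). X summits with the sequence had a median signal of 785, and those without it 303. With X summits put in 4 groups of nearly equal size by signal, from the strongest to the weakest, the share was 91.4%, 64.3%, 42.0% and 43.5%, so it was not lower in the last group than in the one before. The same groups on the arms gave 86.2%, 65.9%, 38.3% and 22.2%. In the weakest group the intervals were 31.6 to 56.0 on X and 17.3 to 27.8 on the arms.

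A few strong X peaks lacked the sequence. Caf1-180 had the highest signal without it, 1696, with 688 in replicate 1 and 1009 in replicate 3, at 151 bp upstream of its TSS. Raf, the kinase of the MAP kinase cascade, had 1362, with 601 in replicate 1 and 762 in replicate 3, also upstream of its TSS. The shoulder summit of CG4293 had 1319. A missing match says only that no stretch within 50 bp of the summit passed the score.

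The X chromosome itself held more strong matches of the sequence, bound or not. A strong match here scores at least as high as the median match at autosomal summits. X had 214 of them, or 9.09 per Mb (7.91 to 10.4), against 6.01 per Mb on the arms, where single arms ran from 5.64 on 3R to 6.33 on 3L. Part of this came from repeats, since 1 word occurred 12 times on X. Counting each distinct word once left 8.16 per Mb on X, against 5.34 to 6.25 on single arms. Counting only strong matches over 5000 bp from any other left 7.05 per Mb on X, against 4.89 to 5.62. With a looser score, exceeded in 1% of flank windows, X had 155 matches per Mb and the arms 151.

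The share of strong matches under a peak on X lay inside the range of the arms. An IDR summit lay within 50 bp of 47.2% of the 214 on X (40.4 to 54.1), against 308 of 655 on the arms (47.0%), where single arms ran from 36.9% on 2R to 52.5% on 3R. Summits with a strong match had a median signal of 851 on X (669 to 1181) and 900 on the arms (796 to 994). Such summits numbered 3.61 per Mb on X and from 1.86 to 2.93 per Mb on single arms.

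**Figure D4:**
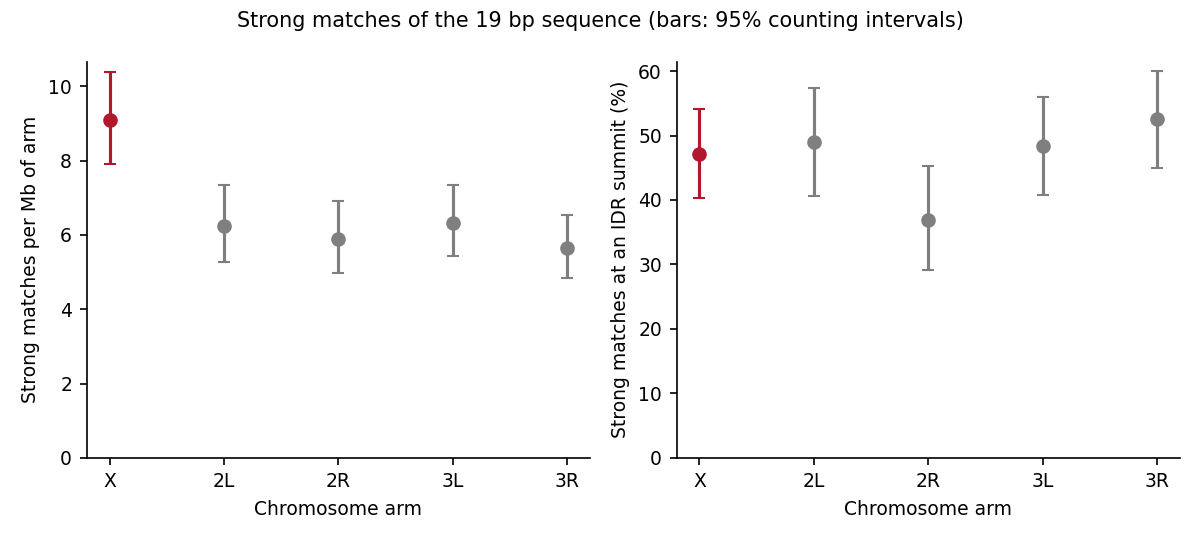
Strong matches of the 19 bp sequence per Mb of arm (left) and percentage of them within 50 bp of an IDR summit (right), for X (red) and then 2L, 2R, 3L and 3R (grey), with 95% counting intervals. X has 9.09 strong matches per Mb, above all 4 arms, while its share under a peak, 47.2%, lies inside their range.

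Short words linked to other factors were counted in the same windows. GAGAGAGA on either strand, of the kind found in entry sites of the MSL complex, lay within 50 bp of 4 of 278 X summits (1.44%, 0.393 to 3.64) and 2 of 1044 on the arms (0.192%, 0.0232 to 0.690). It lay in 0.783% of all windows of the same length tiled over X and 0.523% of those of the arms. CACACACA lay at 1.80% of X summits and 0.670% of autosomal ones, below the 3.02% of all X windows and 1.91% of all autosomal windows. AGATGGCG and AGGTGGCG, which are like the core that CTCF, another insulator protein, binds, were among the 5 8-mers picked for being frequent at autosomal summits. Either of them lay at 27 X summits (9.71%, 6.50 to 13.8) and 8.24% of autosomal ones. All windows of that length held either word at 0.599% on X and 0.492% on the arms. CTCAAACC, another of the 5 and the one from which the matrix used here was grown, lay at 16 X summits (5.76%) and 3.83% of autosomal ones, against 0.166% of all X windows and 0.176% of all autosomal windows.

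Promoters took most summits on X and on the arms, and the other summits were placed more in introns and less between genes on X. Promoter summits made up 61.2% on X (170 summits, 55.1 to 66.9) and 61.1% on the arms, a difference of 0.04 percentage points (−6.49 to 6.34). Among the 669 stronger summits the promoter share was 78.0% on X and 68.2% on the arms, 9.76 points higher (0.64 to 17.4). Intron summits made up 17.3% on X (48 summits) and 12.5% on the arms, 4.72 points higher (0.19 to 9.95). Intergenic summits made up 14.7% on X (41 summits) and 21.5% on the arms, 6.71 points lower (the interval of X minus arms was −11.2 to −1.48). With shoulder summits dropped the intron difference was 6.15 (0.93 to 12.2) and the intergenic one −5.87 (−11.1 to 0.15). Of 7 location classes only these 2 had an interval clear of 0, and the intervals are not adjusted for that number. How much of X and of the arms is intron or intergenic sequence is not given here, so arm composition cannot be told apart from placement. Of the remaining X summits 10 were in 3′ UTRs, 4 in 5′ UTRs, 4 in coding exons and 1 in another exon.

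**Figure D5:**
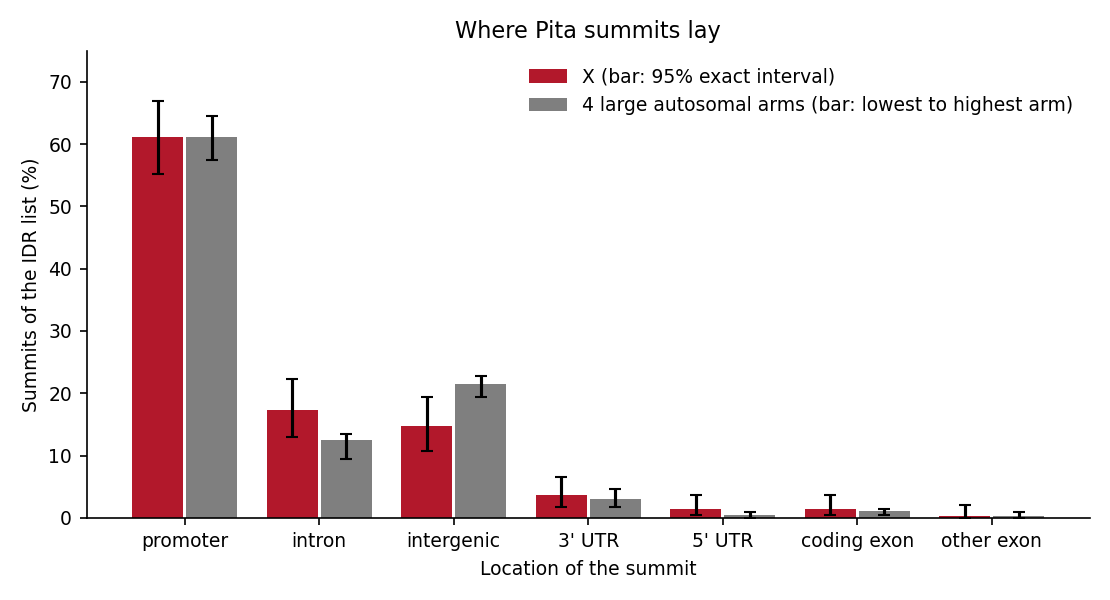
Percentage of IDR summits in each of 7 location classes, for X (red) beside the 4 large autosomal arms together (grey). Bars on X are 95% exact intervals and bars on the arms run from the lowest to the highest arm; promoters take 61.2% on X and 61.1% on the arms, introns 17.3% and 12.5%, and intergenic sequence 14.7% and 21.5%.

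The median X promoter summit lay somewhat nearer the TSS, with an interval that overlapped that of the arms. Counting positions upstream of the TSS as negative, the median position was −87 bp on X (−110 to −76) and −103.5 bp on the arms (−114 to −96). Single arms ran from −116 bp on 3L to −98.5 bp on 2R. With shoulder summits dropped it was −88.5 bp on X (−110 to −77), and single arms ran from −109.5 bp on 3L to −94 bp on 2R. The lower quartile was −157 bp on X and −242 bp on the arms, where single arms ran from −258.5 bp on 2L to −224 bp on 2R. Upstream positions made up 86.5% of X promoter summits and 90.6% of autosomal ones. The position is signed, so the share upstream also enters its median. With a promoter window of 200 bp in place of 500 bp the promoter share was 7.06 points higher on X than on the arms (0.53 to 13.6). Of the 170 X promoter summits 108 held the sequence (63.5%), and of the other 108 X summits 60 did (55.6%). With shoulder summits dropped these shares were 78.0% and 59.2%.

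Counted by gene, X also stood above the arms. An IDR summit lay within 500 bp of a TSS at 166 of 2196 protein-coding X genes (7.56%, 6.49 to 8.75), against 5.36% on the arms and a background of 5.69% over all 13945 genes. Single arms ran from 4.91% to 5.73%, and the difference was 2.19 percentage points (1.08 to 3.44).

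The counts for the gene lists that follow stand beside that share of 7.56% over all protein-coding X genes. The X-linked genes of dosage compensation and sex counting had promoter peaks at 2 of 9 members, Sxl and roX1. The 9 include the non-coding roX1 and roX2, which the share of 7.56% does not cover. The roX1 summit had a signal of 507, with 197 in replicate 1 and 311 in replicate 3, 90 bp upstream of a TSS, and no match of the sequence. The summit nearest roX2 lay 1685 bp downstream of its TSS, at the promoter of nod, a kinesin-like gene of female meiosis. It had 1727, with 801 in replicate 1 and 911 in replicate 3, and held the sequence. For mof, the acetyltransferase of the MSL complex, the nearest summit was 6716 bp away, and for the X-counting genes sisA, sc, run and upd1 it was between 11598 and 58344 bp away. For snf, a splicing factor gene of sex determination, it was 215468 bp away.

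Cytoplasmic ribosomal protein genes were taken as protein-coding X genes whose symbols start with RpL or RpS and a digit. Those with other symbols were not counted. Promoter peaks lay at 6 of these 14 genes (42.9%, against 7.56% of all protein-coding X genes). RpL22 had 2501, with 1239 in replicate 1 and 1260 in replicate 3, at a summit that lay nearer a TSS of lncRNA:CR44966, at 57 bp. RpL17 had 1720, with 734 and 972. RpS14a had 1584, with 716 and 864, at a summit 285 bp upstream of its TSS and 106 bp from a TSS of Dhdds. A shoulder summit 85 bp upstream of RpS14a had 1206, with 258 in replicate 1 and 496 in replicate 3. The neighbouring copy RpS14b had no summit within 500 bp. RpL7A had 982 without the sequence, RpS15Aa had 536 and RpS10b had 286, both with it. Mitochondrial ribosomal protein genes were taken as X genes whose symbols start with mRpL or mRpS, and those with other symbols were not counted. Of these 11 genes 1 had a promoter peak, mRpL33 at 851, a share of 9.09% that is near that of all protein-coding X genes. The summit at mRpL33 lay nearer a TSS of norpA, at 147 bp.

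Of 12 insulator and chromatin genes written down, 11 were found on X, and 2 of these had promoter peaks, Tlk and fs(1)h. The summit of fs(1)h, which encodes a BET-family protein, had 1816, with 838 in replicate 1 and 985 in replicate 3, 142 bp upstream of its TSS. The same summit lay 67 bp upstream of mys, an integrin subunit gene on the other strand. With N, mys made up the 2 of 13 signalling and patterning genes that had one. The nearest summit to nej, the CBP acetyltransferase gene, had 2118 and lay 884 bp upstream, beyond the window of 500 bp. None of the 5 chorion and yolk genes Cp36, Cp38, Yp1, Yp2 and Yp3 had a promoter peak; the nearest summits were 23251 to 72623 bp away. The lists are short, and their counts were not tested against the 7.56% of all X genes. With shoulder summits dropped all these counts were the same. The lists were not compared with each other.

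Along X the fewest peaks lay in the last stretch, toward the centromere. With shoulder summits dropped, successive 5 Mb regions held 12.4, 10.6, 7.80 and 12.6 peaks per Mb, and the last 3.54 Mb held 3.67 per Mb (1.95 to 6.28). Protein-coding genes in the same regions numbered 90.2, 98.4, 95.6, 116 and 55.0 per Mb. The median distance between neighbouring X peaks was 54164 bp, against 65325 to 71776.5 bp on single arms. The largest gap was 849985 bp on X, against 627180 bp on 3L to 3613562 bp on 2R. Of windows of 200 kb, 26 held no peak and 1 held 8. That window, starting at 17600001, covered CG8326, RhoGAPp190, chas, raskol and OdsH. Its strongest peak was at the promoter of raskol, a Ras GTPase-activating protein gene, with a signal of 1450, followed by 1038 in a 3′ UTR nearest raskol and 1031 in an intron near chas. Windows starting at 600001 and 1200001 held 6 peaks each. The first had RpL22 and CG5273 at 2501 and 2319, with SkpA, a subunit of SCF ubiquitin ligases, at 1146, and the second had CG3638 at 2069 and fs(1)N at 939.

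Shoulder summits made up 18.7% on X (52 of 278) and 19.3% on the arms, a difference of −0.64 percentage points (−5.49 to 4.85). On X 51 of the 52 lay to the right of the stronger summit on the plus strand, at a median distance of 202 bp. The arms were alike, with 200 of 202 to the right and a median distance of 204 bp. The sequence was at 8 of the 52, and at 36 of the 52 stronger summits beside them. Their median signal was 235, against 777 at the stronger summits.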

How the data were processed

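Pita-GFP ChIP-seq peak lists of 2 libraries, 1 group, were used. The authors deposited a signal per peak, used as deposited, with summits on dm6 and dm3. Per the deposited notes, a control alignment was used in calling candidates. Not given in the sources used here are the aligner, the caller, the IDR threshold and the signal's scaling. The IDR list equals the 1338 strongest of 30000 pooled candidates. Gene models were Ensembl release 115 on dm6 without transposable elements, and sequence was RefSeq's of the same assembly. A summit outside promoters was classed by UTR (5′, then 3′), then coding exon, any other exon, intron, and else intergenic.

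The 19 bp matrix was grown over 8 rounds on 850 autosomal peaks with shoulder summits dropped, from each of the 5 8-mers most enriched there, and the one found at most summits (540) was kept, with a score that 5% of flank windows exceed. Intervals are exact Poisson (densities), Clopper-Pearson (shares, density ratios), Newcombe (differences of shares) and order-statistic (medians) intervals. No test between groups was possible, and peaks were not treated as replicates. Members and lists were chosen with earlier results of these data known. Peaks named are the 12 strongest, the strongest of each class, the 3 strongest without the sequence, the 3 of largest rank difference among the top 50, the 3 weakest, those of the 3 densest 200 kb windows and members of the gene lists. Shoulder finding, matrix growth and intervals were tested on simulated data. Python 3.11.15, NumPy 2.4.6, SciPy 1.17.1, pandas 2.3.3 and Matplotlib 3.10.9 were used.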

Additional observations from a re-analysis of the deposited data

How the results depend on the processing

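Of 47 recomputed values, 41 stayed within the spread of the value they replace and reversed no difference whose interval was clear of 0. With the 669 stronger summits, the density ratio was 1.01, the difference in called candidates 0.514 percentage points and the promoter difference 9.76 points. The log2 signal difference was then 0.16, the only one of these to change sign. Some differences whose main interval reached 0 also changed sign under other settings. The shoulder share difference was −0.64 points with the main distance and 2.93 points (0.25 to 6.59) with a distance of 200 bp. Per 100 protein-coding genes the density ratio was 1.41, and with a promoter window of 200 bp the promoter difference was 7.06 points. The cause was not tested. With single replicates the density ratio ran from 1.19 to 1.23 and the sequence difference from 4.22 to 7.67 points, where the interval of replicate 1 alone reached 0 (−2.37 to 10.6). The sequence difference also had an interval that reached 0 at the 1% flank score (6.06, −0.54 to 12.6), at promoter summits (5.69, −2.67 to 13.6) and at other summits (9.74, −0.84 to 19.95). Density on dm3 was not computed, and the shoulder share has no value with shoulder summits dropped. No paired analysis was possible because the design has 1 group. Unknown read depth limits what weak peaks can show.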

Other observations

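On the dm3 assembly the IDR list held 266 X summits of 1265 (21.0%), against 977 on the large autosomal arms, and on dm6 278 of 1338 (20.8%). The dm3 scaffold XHet, of X heterochromatin, held 8 pooled candidates and 0 IDR summits. In the dm3 list the log2 signal difference between X and the arms was −0.44 (−0.66 to −0.17).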
